A study of Mus musculus with 8 samples.

Results

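The 10 genes described here encode the main parts of MHC class I antigen presentation in the mouse. They were taken by symbol from the deposited table: H2-K1, H2-D1, B2m, Tap1, Tap2, Tapbp, Psmb8, Psmb9, Psmb10 and Nlrc5. All 10 were found among the 55421 genes of the table and all 10 passed the filter on low counts, which left 17035 genes for testing. RNA came from the tibiae and femurs of 8 wildtype male C57BL/6 mice, 15 weeks old at the start. Saline vehicle was injected into 4 of them, and doxorubicin, an anthracycline used in chemotherapy, into the other 4 (10 mg/kg, once, intraperitoneally). Bones were taken on day 30, after their ends had been cut off and the marrow spun out, and each mouse gave 1 library, so replicates are separate animals. The series uses the drug as a model of senescence brought on by chemotherapy, and the comparison asked whether the class I genes differed between the doxorubicin and vehicle bones.

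MHC class I molecules show short peptides from inside the cell to CD8 T cells and natural killer cells. The proteasome cuts cytosolic proteins, and its immunoproteasome form carries Psmb8, Psmb9 and Psmb10 in place of the standard catalytic subunits Psmb5, Psmb6 and Psmb7. The transporter made of Tap1 and Tap2 moves the peptides into the endoplasmic reticulum, where tapasin (Tapbp) helps to load them onto a heavy chain (H2-K1 or H2-D1) bound to the light chain beta-2 microglobulin (B2m). Interferon-gamma raises most of these genes, in part through the transcription factor Irf1, and the transactivator Nlrc5 acts on class I promoters at a composite element with the boxes named S, X and Y. Class I molecules are carried by nearly all nucleated cells and are most abundant on blood and endothelial cells, so in bulk bone fewer cells of a type and less RNA per cell cannot be told apart.

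Of the 10 genes, 7 lie in the MHC region of chromosome 17 (GRCm38, GENCODE M21 annotation). Tapbp spans 33915899 to 33929292, H2-K1 33996017 to 34000347 on the minus strand, and H2-D1 35262730 to 35267499. Between them Psmb9 (34181987 to 34187764, minus strand), Tap1 (34187553 to 34197225), Psmb8 (34197721 to 34201454) and Tap2 (34203527 to 34216321) lie side by side. B2m lies on chromosome 2 (122147686 to 122153083), and Psmb10 (105935735 to 105938444) and Nlrc5 (94434356 to 94527272) on chromosome 8. The exons of Tap1 and Psmb9 share 212 bases on opposite strands. The strand setting of the counting was not given in the sources used here. Reads from that stretch therefore cannot be assigned to 1 of these genes with certainty. The exons of Tap2, Tapbp, Psmb8 and Nlrc5 likewise share 78 to 904 bases with noncoding genes on the opposite strand, and those of Tapbp 149 bases with Zbtb22 on its own strand. H2-K1 and H2-D1 belong to a family of similar genes. Of the 75-base windows of their principal transcripts, 1.55% and 6.90% also occur in transcripts of other genes. The share was 0 for B2m, Tap1, Tap2, Nlrc5 and the 3 immunoproteasome genes and 0.992% for Tapbp. These shares count exact matches only and do not measure the error of the heavy chain values, which was not tested.

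The promoters of H2-K1, H2-D1 and B2m are shown because they hold the same arrangement of letters. Sequences are from RefSeq (GRCm38.p6), which held a window from 250 bases before to 50 bases after the start site for 8 of the 10 genes (not Tap2 and Nlrc5). The 180 bases before the start site are printed 5′ to 3′ on the strand of the gene. Capitals mark TGACG and ATTGG where exactly 20 bases separate them, an arrangement of the X2 and Y box letters. In both heavy chain genes they also mark the letters of a kappaB site (the run that begins with 4 G) and the letters of an interferon-stimulated response element core (TTTCACTTC, which reads GAAGTGAAA on the other strand). The stretches lie at chr17:34000348-34000527 (H2-K1, minus strand), chr17:35262914-35263093 (H2-D1, plus strand) and chr2:122147507-122147686 (B2m, plus strand).
H2-K1: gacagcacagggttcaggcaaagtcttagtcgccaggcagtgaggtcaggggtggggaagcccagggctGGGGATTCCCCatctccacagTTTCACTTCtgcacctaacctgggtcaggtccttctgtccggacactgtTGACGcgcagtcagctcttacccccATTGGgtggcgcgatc
H2-D1: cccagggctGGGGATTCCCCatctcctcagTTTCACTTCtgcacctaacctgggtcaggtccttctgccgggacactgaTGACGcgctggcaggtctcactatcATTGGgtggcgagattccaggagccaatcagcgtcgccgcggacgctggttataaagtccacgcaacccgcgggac
B2m: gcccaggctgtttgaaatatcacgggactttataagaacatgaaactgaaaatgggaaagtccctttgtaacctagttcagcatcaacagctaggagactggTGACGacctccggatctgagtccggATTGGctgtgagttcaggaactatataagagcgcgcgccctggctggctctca

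The element began 41 bases before the start site of H2-K1, 101 before that of H2-D1 and 78 before that of B2m. From another RefSeq start site of H2-K1 it began 55 bases before. GENCODE starts H2-D1 earlier, at 35262730, so by that annotation the printed stretch of H2-D1 lies inside the gene. Of the 20 bases between its ends, 13 were identical in the 2 heavy chain genes, whereas B2m matched H2-K1 at 3 and H2-D1 at 2. Searched on both strands, TGACG, 20 bases and ATTGG occurred in 31 of 32851 RefSeq windows of the same length (0.0944%), which belonged to 27 of 27025 genes. These 27 genes held H2-K1, H2-D1, B2m and another class I heavy chain gene, H2-M3, and none of the other members with a window. This motif was chosen after the promoters had been read. GAANNGAAA was searched as a core of the interferon-stimulated response element. It occurred in 7.52% of all windows, and among the members in those of H2-K1 and H2-D1. Forms with other spacing were not searched. The printed stretch of B2m holds gaaactgaaa, which GAANNGAAA does not match, so the search does not show that B2m lacks such an element. The kappaB letters occurred in 0.0304% of windows, those of H2-K1 and H2-D1 among them, and TTCNNNGAA, the letters of the GAS element of interferon-gamma responses, in 8.3%, with Psmb8 the 1 member that held it. A match describes the letters only.

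Psmb9 and Tap1 are transcribed away from each other, and by RefSeq 225 bases lie between their start sites (chr17:34187331-34187555, printed on the plus strand, that of Tap1). Capitals mark TGACG and CCAAT, which is ATTGG on the strand of Psmb9; here the letters stand on opposite strands and far apart. The stretch is shown because the counts of these 2 neighbours are compared below.
Tap1 and Psmb9: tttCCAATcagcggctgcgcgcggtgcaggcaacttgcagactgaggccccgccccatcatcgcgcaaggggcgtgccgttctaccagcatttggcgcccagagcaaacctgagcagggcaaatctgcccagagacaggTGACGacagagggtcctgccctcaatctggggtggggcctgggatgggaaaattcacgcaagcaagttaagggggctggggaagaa

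The 8 libraries held between 23699525 and 35747083 counts. Markers of bone cells, of residual marrow and of attached muscle were detected in every library. The summed level of the 7 osteoblast markers ran from 2337 to 5181 CPM (TMM-scaled counts relative to the library's total, the unit of all levels here) in vehicle and from 2301 to 8170 in doxorubicin, and that of the 6 osteocyte markers from 437 to 985 and from 344 to 736. The 7 neutrophil markers ran from 12302 to 22215 and from 9804 to 20557 CPM, the 7 skeletal muscle markers from 3386 to 19862 and from 10923 to 27760, and the 7 endothelial markers from 182 to 209 and from 202 to 256. Of the 16 marker lists, none held a gene at 0 in all libraries. Labels name no batch.

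None of the 10 class I genes passed the test. In edgeR's quasi-likelihood test with Benjamini-Hochberg adjustment, 0 of 17035 genes (0%) had an adjusted p under 0.05. An unadjusted p under 0.05 was reached by 913 genes (5.36%; 2.13% higher and 3.23% lower in doxorubicin) and by 0 of the 10 members. DESeq2 called 29 genes (0.17%; 0.0411% higher and 0.129% lower), none of them a member, and limma-voom called 0. The log2 differences of the members, doxorubicin minus vehicle, ran from 0.025 (Nlrc5) to 0.31 (Tap1), with a median of 0.091 against 0.036 over all tested genes. The number of members above 0 was 10 in this fit, 8 with library size as the only scaling (H2-K1 and Nlrc5 below 0), 6 without vehicle 1 or without doxorubicin 3, and 7 to 10 without any other library. Over all tested genes 57.2% lay above and 42.8% below 0. The groups overlapped in every member, whereas they did not overlap in 3.59% of all tested genes (1.64% higher and 1.95% lower in doxorubicin).

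**Figure D1:**
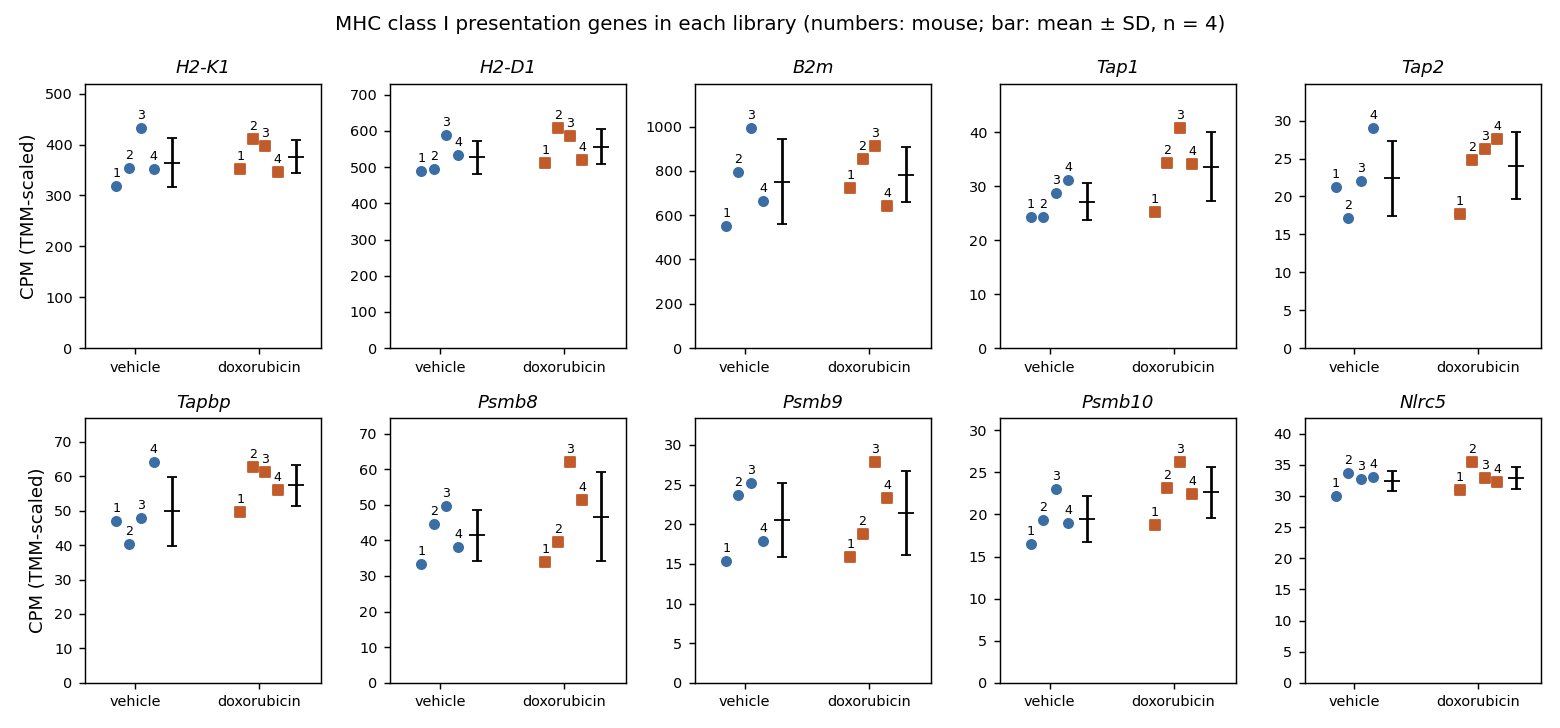
TMM-scaled CPM of each of the 10 class I genes in each library (y axis from 0, a scale of its own per gene), with vehicle mice as circles, doxorubicin mice as squares, the mouse number above each point and mean ± SD (n = 4) as bars. The groups overlapped in all 10 genes, and vehicle 1 was the lowest library in 8 of them.

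The heavy chain gene H2-K1 measured 318.6, 353.3, 433.1 and 352.7 CPM in vehicle 1 to 4 and 352, 410.7, 397.6 and 345.6 CPM in doxorubicin 1 to 4. The highest and the lowest library were both vehicle, vehicle 3 and vehicle 1, and the doxorubicin libraries fell between them. The means were 364 ± 48.6 and 376 ± 32.5 CPM (SD, n = 4 each), which gave a log2 difference of 0.047 ± 0.14 (SE; edgeR adjusted p = 0.949). H2-D1, the other classical heavy chain gene of this strain in the list, measured 489.4, 495.8, 589.2 and 534.2 CPM in the vehicle mice and 511.1, 608.9, 586.5 and 519.3 CPM in the doxorubicin mice. Vehicle 1 was again the lowest, and doxorubicin 2 the highest. Its log2 difference was 0.078 ± 0.14 (SE; edgeR adjusted p = 0.910), and with 1 library left out it ran from 0.0035 (without doxorubicin 2) to 0.11. The coefficient of variation over the 8 libraries was 10.5% for H2-K1 and 8.58% for H2-D1.

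B2m, whose protein is the light chain of all class I molecules, measured 551.4, 796.8, 994.9 and 664 CPM in the vehicle mice and 723.7, 853.9, 912 and 639.3 CPM in the doxorubicin mice. As for H2-K1, vehicle 3 was the highest and vehicle 1 the lowest, and the vehicle libraries spread more widely than the doxorubicin ones. The means were 752 ± 191 and 782 ± 124 CPM (SD, n = 4 each), which gave a log2 difference of 0.057 ± 0.21 (SE; edgeR adjusted p = 0.957). Its coefficient of variation in vehicle, 25.4%, was the largest of any member in that group. The directions of H2-K1 and B2m were not stable: with 1 library left out their log2 differences ran from −0.026 to 0.10 and from −0.066 to 0.18.

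Among the transporter genes Tap1 had the smallest p of the members. It measured 24.32, 24.36, 28.69 and 31.16 CPM in the vehicle mice and 25.23, 34.33, 40.83 and 34.17 CPM in the doxorubicin mice. Doxorubicin 2, 3 and 4 lay above all vehicle libraries, while doxorubicin 1 lay inside the vehicle range. The means were 27.1 ± 3.38 and 33.6 ± 6.41 CPM (SD, n = 4 each), which gave a log2 difference of 0.31 ± 0.16 (SE), with an unadjusted p of 0.0743 and an adjusted p of 0.856 in edgeR. It ranked 1372nd of 17035 genes by p. With 1 library left out the difference stayed above 0 and ran from 0.18 without doxorubicin 3 to 0.41 without doxorubicin 1.

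Tap2, which pairs with Tap1 in the transporter, measured 21.25, 17.17, 22.06 and 29.07 CPM in the vehicle mice and 17.66, 24.87, 26.21 and 27.57 CPM in the doxorubicin mice. The highest and lowest libraries, vehicle 4 and vehicle 2, were both vehicle. Its log2 difference was 0.10 ± 0.19 (SE; edgeR adjusted p = 0.910). Tapbp, which holds the transporter and an empty heavy chain together, measured 46.87, 40.45, 47.81 and 64.01 CPM in the vehicle mice and 49.49, 62.6, 61.28 and 55.92 CPM in the doxorubicin mice. Vehicle 4 was the highest library and the other vehicle libraries lay below all doxorubicin libraries. The log2 difference of Tapbp was 0.20 ± 0.15 (SE; edgeR adjusted p = 0.856), and with 1 library left out it ran from 0.10 (without vehicle 2) to 0.32 (without vehicle 4).

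The immunoproteasome genes spread widely between mice of 1 group. Psmb8 measured 33.42, 44.56, 49.69 and 38.11 CPM in the vehicle mice and 33.92, 39.47, 61.87 and 51.32 CPM in the doxorubicin mice. Psmb9 measured 15.32, 23.7, 25.21 and 17.89 CPM in the vehicle mice and 15.83, 18.74, 27.79 and 23.36 CPM in the doxorubicin mice. Both put doxorubicin 3 highest, with vehicle 1 and doxorubicin 1 lowest, and ranged over 1.85 and 1.81 times from the lowest to the highest library. Their log2 differences were 0.17 ± 0.20 and 0.062 ± 0.21 (SE; edgeR adjusted p of 0.878 and 0.953), and without doxorubicin 3 they were −0.017 and −0.11. Psmb10 measured 16.49, 19.32, 23.08 and 18.94 CPM in the vehicle mice and 18.79, 23.1, 26.18 and 22.45 CPM in the doxorubicin mice. Doxorubicin 3 was again the highest library and vehicle 1 the lowest. Its log2 difference was 0.22 ± 0.14 (SE; edgeR adjusted p = 0.856), which became 0.12 without doxorubicin 3 and 0.28 without doxorubicin 1.

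Nlrc5, the transactivator of class I genes, hardly varied. It measured 29.98, 33.59, 32.68 and 33.02 CPM in the vehicle mice and 31.01, 35.36, 32.86 and 32.3 CPM in the doxorubicin mice. Its coefficient of variation over the 8 libraries was 4.96%, against 8.58% to 22.3% for the other members. Its log2 difference was 0.025 ± 0.094 (SE; edgeR adjusted p = 0.957), and the sign changed without vehicle 1, vehicle 3 or doxorubicin 2.

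The precision of the comparison is shown by the 95% intervals of the edgeR fit, which take the spread of the genes as estimated there. The interval of Nlrc5 ran from a fold of 0.880 to 1.18, that of B2m from 0.750 to 1.44 and that of Tap1 from 0.975 to 1.58. Over the 10 genes the lowest bound was the 0.750 of B2m and the highest the 1.58 of Tap1. Folds inside these intervals were not resolved. Every member had at least 364 counts in each library.

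**Figure D2:**
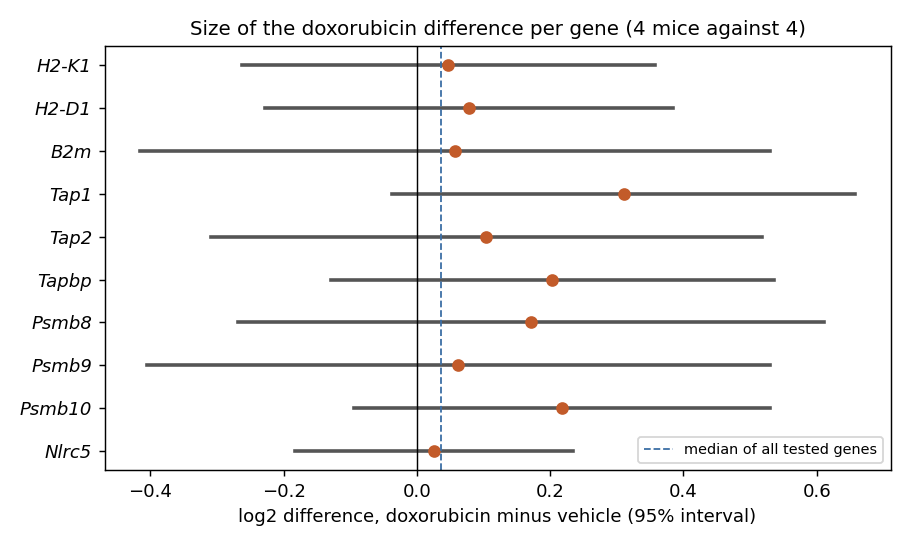
Log2 difference (doxorubicin minus vehicle) of each class I gene as a point, with its 95% interval as a line; the solid vertical line is 0 and the dashed line the median of all tested genes, 0.036. All 10 intervals hold 0, and with library size as the only scaling H2-K1 and Nlrc5 change sign.

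Per kilobase of the principal transcript, B2m stood far above the other members, at 874 ± 222 CPM per kilobase in vehicle and 910 ± 144 in doxorubicin (SD, n = 4 each). H2-D1 followed at 251 ± 21.8 and 265 ± 23.1 and H2-K1 at 225 ± 30.0 and 233 ± 20.1 CPM per kilobase, and H2-D1 lay above H2-K1 in 8 of 8 libraries under both lengths tried. With the length of all exons the gap was wider, at 204 ± 17.8 against 124 ± 16.5 CPM per kilobase in vehicle. Psmb8 (25.5 ± 4.39 in vehicle), Tapbp (17.2 ± 3.46), Psmb9 (15.2 ± 3.47) and Psmb10 (14.8 ± 2.08) formed a middle group whose order depended on the length used. Tapbp was above Psmb9 in 6 of 8 libraries and Psmb9 above Psmb10 in 4 of 8, so these neighbours were not separated. Tap1 (9.19 ± 1.14), Tap2 (6.50 ± 1.44) and Nlrc5 (4.26 ± 0.212 CPM per kilobase) were the lowest. With the length of all exons of a gene in place of the principal transcript, the first 3 places and the last were the same, while Tap2 moved above Psmb9 and Tap1.

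Ratios between partner genes do not depend on how libraries are scaled. Per kilobase, each immunoproteasome subunit lay below the standard subunit it replaces: in vehicle, Psmb8 was at 25.5 against 48.8 ± 4.52 CPM per kilobase for Psmb5, Psmb9 at 15.2 against 76.7 ± 8.55 for Psmb6, and Psmb10 at 14.8 against 65.2 ± 9.46 for Psmb7 (SD, n = 4). These 3 orders also held with the length of all exons. The log2 ratio of the CPM of Psmb8 to that of Psmb5 was −0.093 ± 0.20 in vehicle and −0.16 ± 0.35 in doxorubicin (SD, n = 4 each). Doxorubicin 1 had the lowest ratio at −0.65 and doxorubicin 3 the highest at 0.17. For Psmb9 to Psmb6 the log2 ratio was −1.60 ± 0.28 and −1.69 ± 0.38, and for Psmb10 to Psmb7 −1.96 ± 0.27 and −1.94 ± 0.27 (SD, n = 4 each). In each of the 3 ratios doxorubicin 1 was the lowest library.

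The largest group difference among the 6 ratios tested was that of Tap1 to Tap2. Its log2 ratio was 0.19, 0.50, 0.38 and 0.10 in vehicle 1 to 4 and 0.51, 0.47, 0.64 and 0.31 in doxorubicin 1 to 4, so that the groups overlapped. The difference was 0.19 (p = 0.171 and adjusted p = 1.00 in a two-sided exact permutation test over 70 arrangements), and leaving out each library in turn gave 0.12 to 0.26. The ratio of B2m to the sum of H2-K1 and H2-D1 differed by 0.011 between groups, and that of Psme1 to Psme2, the subunits of the proteasome activator PA28, by 0.032. The unadjusted p of the 6 ratios lay between 0.171 and 1.00, and 4 mice against 4 cannot give a p below 0.0286. Leaving out 1 library changed the sign of every difference other than that of Tap1 to Tap2.

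**Figure D3:**
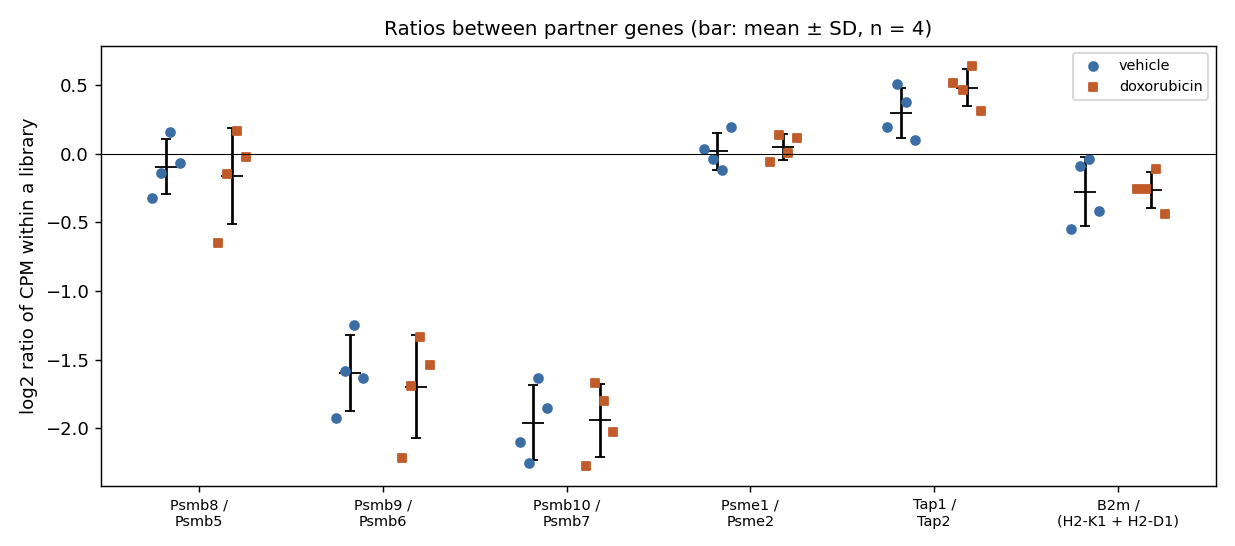
Log2 ratio of the CPM of partner genes within each library (circles, vehicle; squares, doxorubicin; bars, mean ± SD, n = 4 each). The groups overlap in all 6 ratios, and doxorubicin 1 is the lowest library for the 3 immunoproteasome ratios, with −0.65 for Psmb8 to Psmb5.

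Members with the same role had higher correlations with each other, by the median, than members with different roles. Over the 45 pairs, Pearson's r of log2 CPM ran from −0.062 (B2m with Tap2) to 0.97 (Psmb8 with Psmb9), with a median of 0.57. Within the heavy and light chains r ran from 0.77 to 0.94, within Tap1, Tap2 and Tapbp from 0.79 to 0.86, and within the immunoproteasome from 0.79 to 0.97. The 27 pairs between these 3 sets of genes had a median of 0.48 and reached 0.84 (Tap1 with Psmb10), so the 2 ranges overlapped. The 9 pairs with Nlrc5 had a median of 0.49. With each value centred on its group mean, the 9 pairs within a set ran from 0.76 to 0.98 and the 27 between sets had a median of 0.44. Correlations were also computed without the 2 libraries farthest from the median of 1 gene of each pair. The immunoproteasome pairs then ran from 0.53 to 0.95, the heavy and light chains from 0.66 to 0.93 and the transporter set from 0.84 to 0.91. Pairs between sets then had a median of 0.50 and reached 0.92. Scaled by library size alone, the medians were higher, at 0.91 for the pairs within a set, 0.72 for those between sets and 0.82 for those with Nlrc5. Among the 17034 other tested genes, a partner from the same set ranked by r from 7th (B2m for H2-K1) to 982nd (Psmb10 for Psmb9). Psmb9 ranked 28th for Psmb8, and Tap2 521st for Tap1. Many genes outside the list thus correlated with a member more closely than some partners of its set. These pairs share libraries and the same scaling factors, and the grouping is a description of these 8 mice.

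Of the 45 pairs, 3 passed an adjusted p of 0.05 in an exact permutation test over all pairings of the 8 libraries. Psmb8 and Psmb9 had r = 0.97 (exact permutation adjusted p = 0.0156) and Spearman's rho = 0.93 (exact permutation adjusted p = 0.0502). Without the libraries farthest from the median of Psmb8 r was 0.95. H2-K1 and B2m had r = 0.94 (exact permutation adjusted p = 0.0218) and rho = 0.95 (exact permutation adjusted p = 0.0502), and r without the 2 libraries farthest from the median of H2-K1 was 0.93. H2-K1 and H2-D1 had r = 0.92 (exact permutation adjusted p = 0.0413) and rho = 0.81 (exact permutation adjusted p = 0.122), and r without the same libraries was 0.89. B2m and H2-D1 had r = 0.77 (exact permutation adjusted p = 0.115). That is below the r of Psmb10 with H2-D1 (0.82) and with H2-K1 (0.79; exact permutation adjusted p = 0.0890 for each). Psmb10 holds no TGACG, 20 bases and ATTGG in its window. Differences between these correlations, and the part of that arrangement in them, were not tested. H2-K1 and H2-D1 also share some read sequence.

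Psmb9 and Tap1, which start 225 bases apart, tracked each other less closely. Their r was 0.54 and rho 0.52 (exact permutation adjusted p of 0.311 and 0.374), and without the 2 libraries farthest from the median of Tap1 r was 0.036. Vehicle 2 had nearly the lowest Tap1 (24.36 CPM) and a high Psmb9 (23.7 CPM), and doxorubicin 2 a high Tap1 (34.33 CPM) and a low Psmb9 (18.74 CPM). The difference between this correlation and that of Psmb8 with Psmb9 was not tested.

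**Figure D4:**
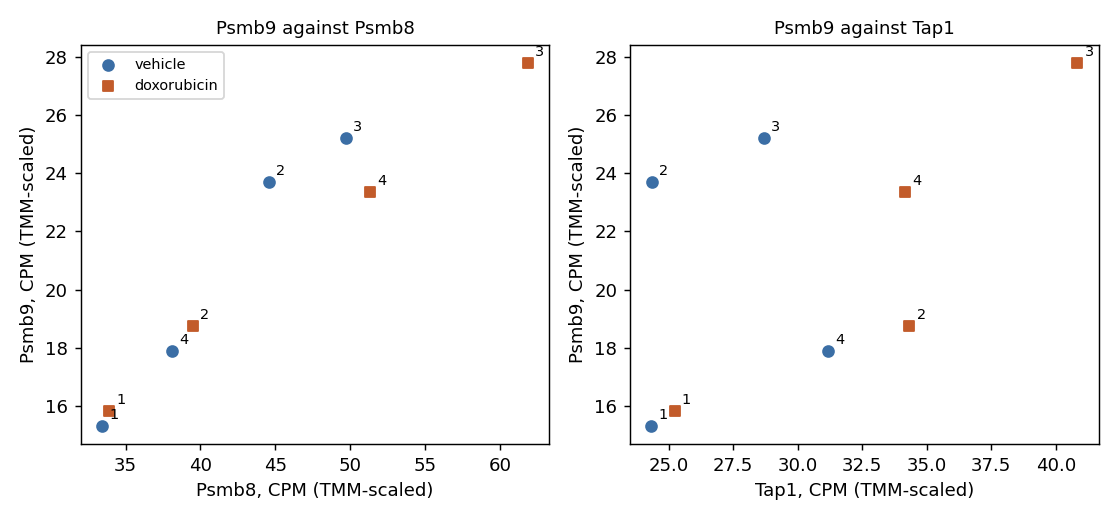
CPM of Psmb9 (y axis) against that of Psmb8 (left) and of Tap1 (right) in the 8 libraries, numbered by mouse, with vehicle as circles and doxorubicin as squares; axes do not start at 0. The points lie close to a line at left (r = 0.97) and scatter at right (r = 0.54), with both r computed on log2 CPM.

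**Figure D5:**
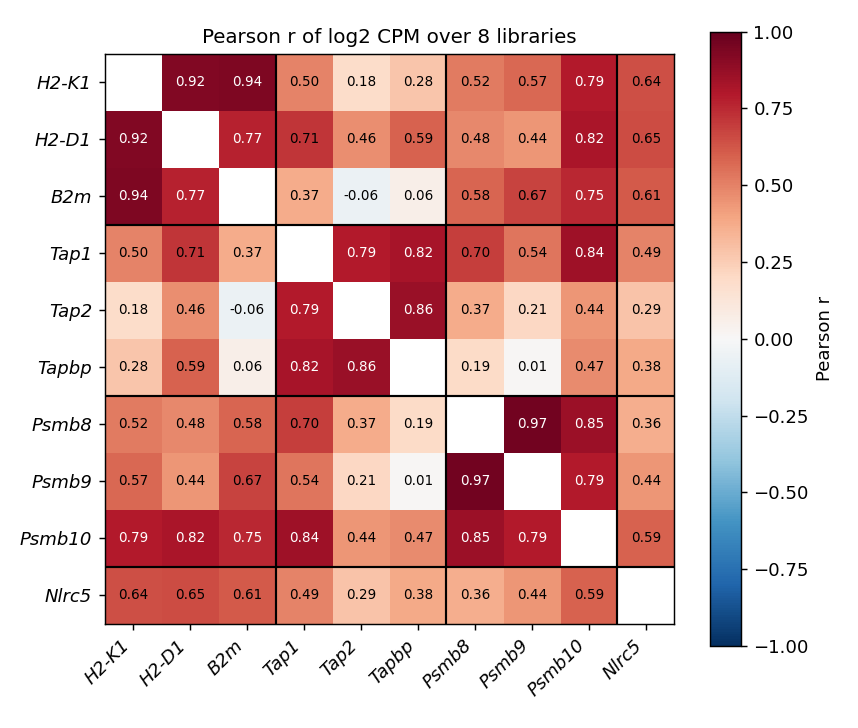
Pearson's r of log2 CPM over the 8 libraries for each pair of class I genes, from −1 (blue) to 1 (red), with black lines between the heavy and light chains, the transporter and tapasin, the immunoproteasome and Nlrc5. The lowest r within a set is 0.77 (H2-D1 with B2m), and Tap2 with B2m is the 1 pair below 0 (−0.062).

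Nlrc5 and Irf1, known regulators of class I transcription, were then set against the members. Irf1, an interferon-induced transcription factor, measured 36.5 ± 5.35 CPM in the vehicle mice and 39.9 ± 2.76 CPM in the doxorubicin mice (SD, n = 4 each). Of 19 relations of Nlrc5 and Irf1 with the members, 0 passed an adjusted p of 0.05 (adjusted over the 29 relations computed) and 5, all of Irf1, had an unadjusted p under 0.05 in exact permutation tests. The closest was Irf1 with Psmb10, at r = 0.92 (exact permutation p = 0.00188, adjusted p = 0.0547) and rho = 0.83 (exact permutation adjusted p = 0.201). Without vehicle 1 and vehicle 3, the libraries farthest from the median of Irf1, its r was 0.92. Irf1 with H2-K1 had r = 0.87 and with B2m 0.84 (exact permutation adjusted p of 0.0949 and 0.0995), which became 0.67 and 0.58 without those libraries. Nlrc5 itself had r between 0.29 (Tap2) and 0.65 (H2-D1), and 0 of its 9 relations had an unadjusted exact permutation p under 0.05. The count of 0 depends on the scaling: with library size alone 15 of the 19 passed.

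By a rule that ranked 14774 genes on their Pearson's r with the mean of the members' standardised log2 CPM over the 8 libraries, the 5 genes most alike were Thumpd2 (r = 0.96), Tspyl3 (0.96), Zbtb3 (0.95), Nxpe1-ps (0.95) and Cx3cr1 (0.94). Cx3cr1 is the fractalkine receptor of monocytes and macrophages. These values pick the top of many genes and carry no test. The summed level of 5 pan-leukocyte markers was lowest in doxorubicin 1 (943 CPM) and vehicle 1 (999 CPM), which were also the lowest libraries for the mean profile of the members, and highest in vehicle 3 (1461 CPM) and doxorubicin 3 (1346 CPM). Doxorubicin 2 went against this order: it was second only to doxorubicin 3 in the mean profile of the members, while its marker sum, 1088 CPM, was among the lowest. The ranges of that sum overlapped between the groups, and its part in the members' values was not tested. The sum of the skeletal muscle markers was lowest in vehicle 3 (3386 CPM), doxorubicin 3 (10923 CPM) and doxorubicin 2 (12862 CPM). These were also the highest libraries in the mean profile of the members. Doxorubicin 4, next in that profile, had a high muscle sum (25876 CPM), below only that of doxorubicin 1 (27760 CPM). The part of muscle in the members' values was not tested either.

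Of 17 other class I heavy chain genes, 11 were tested and 0 passed. In the edgeR fit 9 lay above 0 (7 with library size alone, 6 to 9 with 1 library left out), with a median log2 difference of 0.11. H2-M2 had the smallest p of this list. It measured 2.286, 1.68, 2.387 and 0.9452 CPM in the vehicle mice and 0.5654, 0.6909, 0.5269 and 1.216 CPM in doxorubicin, so that vehicle 4 and doxorubicin 4 overlapped. Its log2 difference was −1.30 ± 0.37 (SE), with an unadjusted p of 0.00532 and an adjusted p of 0.817 in edgeR. H2-T10 had 0.33 ± 0.16 and H2-Q6, whose window also holds the kappaB letters, 0.23 ± 0.13 (log2 difference ± SE). H2-M3, named for its promoter after its values were seen, measured 7.18 ± 1.70 and 7.36 ± 1.08 CPM (SD, n = 4 each), which gave a log2 difference of 0.037 ± 0.19 (SE) that was −0.0059 with library size alone. Of 4 class I-like genes whose products pair with B2m, 0 passed and 4 lay above 0 (3 with library size alone), among them Mr1, which presents vitamin B metabolites, at 0.21 ± 0.11 and Hfe, a regulator of iron uptake, at 0.21 ± 0.12 (log2 difference ± SE).

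Genes of peptide loading and of the standard proteasome did not pass either. Of 9 genes of loading and trimming in the endoplasmic reticulum, 4 lay above and 5 below 0 (median log2 difference −0.0052; 2 above with library size alone, 0 to 5 with 1 library left out), with the chaperones Hspa5 at −0.28 ± 0.18 and Canx at −0.13 ± 0.13 (SE). Of 15 genes of the standard proteasome core, 13 lay above 0 (11 with library size alone, 8 to 15 with 1 library left out), with a median log2 difference of 0.12 that was 0.0094 without vehicle 4 and 0.021 without doxorubicin 3. Psmb5, the chymotrypsin-like subunit, measured 43.8 ± 4.07 and 51.0 ± 5.08 CPM (SD, n = 4 each), which gave a log2 difference of 0.22 ± 0.11. Those of Psmb7, Psmb4 and Psmb6 were 0.20 ± 0.13, 0.17 ± 0.12 and 0.15 ± 0.11 (SE). Psme1 and Psme2 had log2 differences of 0.067 ± 0.15 and 0.021 ± 0.18 (SE), and 0 of the 4 proteasome activator genes passed.

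Among 24 tested genes of interferon signalling and class I transcription 15 lay above and 9 below 0 (median log2 difference 0.054; 13 above with library size alone, 11 to 18 with 1 library left out), and 0 passed. Jak2, the kinase of the interferon-gamma receptor and of several blood cell cytokine receptors, measured 124.4, 141.3, 122.3 and 102.5 CPM in the vehicle mice and 96.6, 94.77, 94.8 and 95.57 CPM in the doxorubicin mice. It was the 1 gene of these 24 whose groups did not overlap, against 3.59% of all tested genes, and it was named for its small p. The log2 difference of Jak2 was −0.36 ± 0.11 (SE), with an unadjusted p of 0.00971 and an adjusted p of 0.825 in edgeR. The 7 megakaryocyte markers, cells in which Jak2 also signals, all lay below 0 (median −0.54), with sums from 1200 to 1906 CPM in the vehicle mice and from 789 to 1243 CPM in doxorubicin, and their part in the Jak2 value was not tested. Stat2 measured 28.3 ± 1.33 and 33.3 ± 2.92 CPM (SD, n = 4 each; unadjusted p = 0.0426 and adjusted p = 0.856 in edgeR). Irf7, an interferon-induced regulator, had a log2 difference of 0.40 ± 0.18 (SE). It was 0.16 with doxorubicin 3 left out, the library at 49.07 CPM against 24.32 to 31.74 CPM in all others. Ifnb1 was at 0 counts in every library, and Ifng had between 2 and 10 counts, below the filter.

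The 16 interferon-gamma target genes had a median log2 difference of 0.012, with 9 above and 7 below 0 (6 above with library size alone) and 0 past the threshold. With 1 library left out the median ran from −0.13 (without vehicle 4) to 0.074 (without vehicle 3), with 6 to 10 genes above 0. Irgm2, an interferon-induced GTPase, measured 24.58, 29.72, 28.89 and 23.6 CPM in the vehicle mice and 33.4, 29.95, 32.07 and 31.22 CPM in the doxorubicin mice. It was the 1 gene of these 16 whose groups did not overlap, against 3.59% of all tested genes. The margin between vehicle 2 and doxorubicin 2 was less than 1 CPM. The unadjusted p of Irgm2 was 0.0489 and its adjusted p 0.856 in edgeR. Cxcl9, a chemokine induced by interferon-gamma that draws T cells, went the other way at −0.48 ± 0.31 (log2 difference ± SE), which was −0.14 without vehicle 3.

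Receptors of families that read class I molecules are carried by CD8 T cells, natural killer cells and myeloid cells. The 13 listed had a median log2 difference of −0.35, with 11 below 0, also with library size alone, and 0 past the threshold. The median was −0.15 without vehicle 3. Their summed level was not lower throughout: it ran from 334 to 411 CPM in the vehicle mice and from 245 to 481 CPM in doxorubicin. Klra8, an activating Ly49 receptor of natural killer cells, measured 2.286, 2.893, 3.58 and 2.431 CPM in the vehicle mice and 1.653, 2.223, 1.811 and 1.259 CPM in the doxorubicin mice. It was the 1 gene of these 13 whose groups did not overlap, against 3.59% of all tested genes. The log2 difference of Klra8 was −0.68 ± 0.23 (SE), with an unadjusted p of 0.0140 and an adjusted p of 0.856 in edgeR. Klrd1 (CD94) and Klrc1 (NKG2A), which together form an inhibitory receptor, had log2 differences of −0.44 ± 0.24 and −0.43 ± 0.23 (SE). The 6 natural killer cell markers had sums from 32.1 to 43.7 CPM in the vehicle mice and from 27.1 to 48.5 CPM in doxorubicin, with 3 above and 3 below 0. The 7 T cell markers had sums from 28.6 to 46.2 and from 20.7 to 34.4 CPM, with 6 of 7 below 0. Their part in the receptor values was not tested.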

How the data were processed

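RNA-seq counts from marrow-depleted long bones of 4 vehicle and 4 doxorubicin mice were analysed. Per the labels' protocols, a poly-A kit that keeps strand was used on 500 ng of RNA, with molecular identifiers and 15 PCR cycles. The authors deposited whole numbers per gene, not normalized, which are treated here like expected counts since RSEM is named per the submitters' processing notes. The submitters' processing notes name STAR 2.5.3a, RSEM 1.3.0 and the build GRCh38, a human build, although the identifiers are mouse genes. Annotation, strand setting and use of the identifiers were not given in the sources used here. GENCODE M21 was matched by 54587 of the 55421 gene IDs with their version and by 55154 without it. Lengths and positions came from that annotation, and promoters from RefSeq.

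Genes were kept by filterByExpr (minimum count 10, minimum total 15), scaled by TMM and tested with edgeR 4.0.16 (R 4.3.3; robust quasi-likelihood, two-sided, no covariate), adjusted over all 17035 genes. Log2 CPM used a prior count of 2. SE came from the F statistic, and 95% intervals from its degrees of freedom. DESeq2 1.42.0 and limma 3.58.1 (voom) were alternatives, with other scalings, filters, covariates for marrow and muscle markers, the replicate block and each library left out. The muscle covariate, the all-exon length and the relations without vehicle 3 were chosen after seeing the data. Permutation tests were exact. Of the 29 relations computed, 19 are given, and the rest are not reported here. The edgeR script was tested on simulated data. The 10 members and the lists were chosen with earlier results of these data known. The promoter motif was chosen after reading the sequences. Named are all members, their partners in ratios and relations, genes among the 4 with the smallest p of each pathway list, and the 5 genes whose log2 CPM correlates best with the members' mean standardised profile (mean of at least 1 CPM).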

Additional observations from a re-analysis of the deposited data

Results flagged for a closer look

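In 44 groups of 4 libraries (16 genes and 6 ratios, each in vehicle and in doxorubicin), 2 held a library far from the other 3 by Dixon's test at the 95% level, and chance alone flags about 1 in 20 groups. Both were in Psmb7, the standard trypsin-like subunit that Psmb10 replaces. Vehicle 2 measured 91.92 CPM against 68.33 to 71.62 CPM in the other vehicle libraries, and doxorubicin 2 measured 73.32 CPM against 90.72 to 91.4 CPM in the other doxorubicin libraries. These libraries also had the lowest ratio of Psmb10 to Psmb7 in vehicle (log2 of −2.25) and the highest in doxorubicin (−1.67).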

How the results depend on the processing

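No member was called in any of the alternatives, where the adjusted p of members lay between 0.430 and 1.00. The count of genes called, 0 in edgeR, was 29 in DESeq2 and 1 with no filter on low counts. It was 0 under the other settings run, each library left out included, while the count at an unadjusted p under 0.05 ran from 621 (without doxorubicin 4) to 1784 (without vehicle 4). With the replicate number as a block, the count was also 0, while 1466 genes had an unadjusted p under 0.05 against 913 without it. Same-numbered libraries deviated together with correlations of 0.342, −0.266, 0.430 and 0.0902. These 4 values cannot decide whether the numbers pair the mice. The block changed no call on the members, of which 1 had an unadjusted p under 0.05 with it. With the marrow covariate the members' median log2 difference was 0.198, and all 10 lay above 0. There 3 of the 10 had an unadjusted edgeR p under 0.05, as had 1208 of all 17035 genes. With the muscle covariate the median was 0.196, and 2 members and 953 of all genes had such a p. The relations past the threshold, 0 of 19, became 15 with library size as the only scaling. That setting also turned H2-K1 to −0.0035, Nlrc5 to −0.021, Psme2 to −0.015 and H2-M3 to −0.0059, and leaving out haemoglobin genes turned Psme2 to −0.0026. With each library left out, the log2 difference ran from −0.026 to 0.10 for H2-K1, −0.066 to 0.18 for B2m, −0.017 to 0.23 for Tap2, −0.017 to 0.28 for Psmb8, −0.11 to 0.16 for Psmb9, −0.041 to 0.035 for Nlrc5, −0.059 to 0.13 for Psme1, −0.13 to 0.10 for Psme2 and −0.079 to 0.16 for H2-M3. For the ratios it ran from −0.18 to 0.094 (Psmb8 to Psmb5), −0.22 to 0.077 (Psmb9 to Psmb6), −0.082 to 0.13 (Psmb10 to Psmb7), −0.014 to 0.091 (Psme1 to Psme2) and −0.081 to 0.090 (B2m to heavy chains). The cause of these changes was not tested.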
